A study of Mus musculus with 5 samples.

Results

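The 10 genes described here encode the membrane proteins that move calcium ions out of the cytosol: the sodium-calcium exchangers *Slc24a4*, *Slc24a2*, *Slc8a1*, *Slc8a2* and *Slc8a3*, the plasma membrane calcium pumps *Atp2b1*, *Atp2b2* and *Atp2b4*, and the reticulum calcium pumps *Atp2a2* and *Atp2a3*. They were chosen by gene family and taken by symbol from the 55411 genes of the count tables, a rule that uses no measured value. RNA of olfactory sensory neurons (OSNs) sorted by FACS for the GFP reporter of the odorant receptor gene *Olfr151* (*M71*) was sequenced in 5 pools. All mice were 7-week-old males homozygous for the *Olfr151tm26Mom* allele, which couples transcription of the receptor to GFP, on a C57BL/6J background, and neurons of control and exposed mice therefore both carried the knock-in. Isolated mice were kept for 5 h with acetophenone, an agonist of Olfr151, at 5% in DMSO (exposed pools 1 and 3) or with DMSO alone (control pools 1, 2 and 3), and exposed pool 2 was not analysed here. A pool combined live, nucleated GFP-positive cells of 4 mice, 200 cells by the study's methods and 1 field of the labels, while another field gives 400. A value thus joins 4 animals, and a p-value measures the spread between pools only. Values per pool are given in the order of the pool numbers, control pools 1, 2, 3 and exposed pools 1, 3. Library totals were 43534590, 49527380 and 45139127 counts in the control pools and 43683076 and 42780403 in the exposed pools, and 3 counts correspond to 0.0606 to 0.0701 CPM, the count scaled to the library total. The reads carry no molecular identifiers, so this limit covers counting error only.

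In OSN cilia, odorants open cyclic nucleotide-gated channels that let calcium in, and this calcium both opens a chloride channel and drives adaptation. The response ends only when the calcium has left again. Potassium-dependent exchangers of the Slc24 family and exchangers of the Slc8 family do so at the cost of the sodium gradient, Atp2b pumps at the cost of ATP, and Atp2a pumps by loading calcium into the endoplasmic reticulum. *Slc24a4* is the exchanger best known for ending the odor response of OSNs.

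The sorted cells carried the RNA of mature OSNs. *Omp*, the marker of mature OSNs, was at 24356, 25080 and 26684 TPM, the count scaled by exon length and by library, in the control pools and at 18336 and 17984 in the exposed pools. *Stoml3*, a protein of OSN cilia, was the most abundant of the 7 mature OSN markers listed, with a mean of 26279 TPM over the 5 pools. The 7 mature OSN markers summed to at least 54203 TPM in every pool. Of the other cell types, erythroid markers had the largest sum, 1415 TPM in control pool 1, and myeloid markers summed to at most 362 TPM in a pool. Basal cell markers summed to at most 3.47 TPM in a pool, with *Krt5* the most abundant. Markers of ensheathing glia summed to at most 3.53 TPM, with *Npy* at 0 in all pools. Markers of endothelial and vascular muscle cells summed to at most 17.2 TPM, with *Acta2* the most abundant and *Cdh5* and *Kdr* at 0. Sustentacular cell markers (5 of 5 detected in every pool, *Cbr2* the most abundant) summed to 423, 331 and 169.9 TPM in the control pools and to 517 and 218 in the exposed pools. In such pools, fewer cells of a type and less RNA per cell cannot be told apart.

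A wide range of levels separated the 10 genes. In the control pools, *Atp2a2*, the reticulum pump that most cell types use, had the highest mean level, 353 ± 221 TPM (SD, n = 3). *Slc24a4* followed with 190.1 ± 58.2 TPM, *Slc24a2*, its relative known from cone photoreceptors and brain, with 47.9 ± 13.0 TPM, the widely used plasma membrane pump *Atp2b1* with 42.1 ± 10.5 TPM and the exchanger *Slc8a1*, the main calcium exit of heart muscle, with 28.8 ± 1.76 TPM. *Atp2a3*, a reticulum pump of blood and epithelial cells, and the plasma membrane pump *Atp2b4* came last of the tested genes, at 6.57 ± 5.87 and 3.97 ± 0.723 TPM. The ranges of *Atp2a2* and *Slc24a4*, of *Slc24a2* and *Atp2b1*, of *Atp2b1* and *Slc8a1*, and of *Atp2a3* and *Atp2b4* overlapped between control pools, so that the order within these pairs did not exceed the spread of the pools. Within single control pools, *Slc24a2* was above *Atp2b1* and *Atp2b1* above *Slc8a1* in 3 of 3, and *Atp2a2* above *Slc24a4* and *Atp2a3* above *Atp2b4* in 2 of 3. In TPM, the steps from *Slc24a4* to *Slc24a2* and from *Slc8a1* to *Atp2a3* did exceed it. An order between genes in TPM depends on the exon lengths used. Before that scaling, *Slc24a2* had fewer counts (5667, 9874 and 8513) than *Atp2b1* (6445, 10706 and 9176) in 3 of 3 control pools. The control counts of *Slc24a4*, 8319 to 15493, and of *Slc24a2*, 5667 to 9874, overlapped between pools, with *Slc24a4* above within each pool. Among the exposed pools, the order was *Slc24a4* (123 ± 18.3 TPM, SD, n = 2), *Atp2a2* (94.8 ± 25.2), *Atp2b1* (64.5 ± 5.46), *Slc24a2* (45.8 ± 2.59), *Slc8a1* (31.3 ± 6.58), *Atp2b4* (13.2 ± 2.07) and *Atp2a3* (6.88 ± 9.32), with overlapping ranges between *Slc24a4* and *Atp2a2* and between *Atp2b4* and *Atp2a3*.

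**Figure D1:**
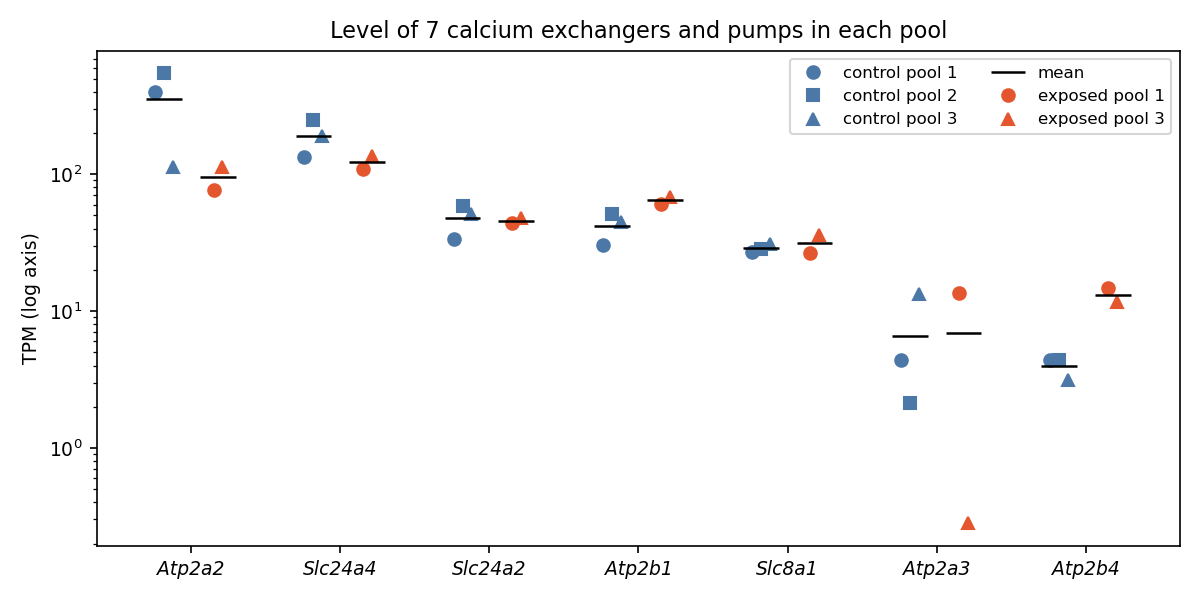
Level of the 7 tested genes in each pool, in TPM on a log axis. Blue symbols are control pools, orange symbols exposed pools and black lines the means; the exposed pools lie above every control pool for *Atp2b1* and *Atp2b4*, and control pool 3 lies with the exposed pools for *Atp2a2*.

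The 3 remaining genes were at the edge of detection. *Slc8a3*, an exchanger of brain and skeletal muscle, had 0 counts in all 5 pools, which allows at most 3 counts in each. *Slc8a2*, an exchanger of brain neurons, had 0, 23 and 0 counts in the control pools and 1 and 0 in the exposed pools. *Atp2b2*, the pump of hair cell bundles, had 77, 7 and 6 counts in the control pools and 0 in both exposed pools. The control counts of *Atp2b2* came mostly from control pool 1, and neither gene reached the 140 counts that a gene needed in every pool of a condition to be tested.

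In the comparison of exposed with control pools, which asks how 5 h of agonist change the RNA of these neurons, the plasma membrane pumps *Atp2b4* and *Atp2b1* rose and no other member was called. Calls were made with the quasi-likelihood test of edgeR, adjusted by Benjamini-Hochberg over the 10054 genes tested, and required an adjusted p under 0.1 together with a log2 fold change beyond 0.5 in either direction. Of the 7 members tested, 2 were called, where 5.27% of all genes tested were. Both were called higher (3.42% of all genes), and 0 were called lower (1.85% of all genes). At an unadjusted p-value under 0.05 and the same fold change, 2 members were higher and 1, *Atp2a2*, lower, beside 17.7% of all genes tested (8.37% higher and 9.36% lower). DESeq2's Wald test called 2 members higher and 0 lower, beside 14.9% of all genes (7.21% higher and 7.65% lower). The median log2 fold change of the 7 members was 0.28, and that of all genes tested -0.03.

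*Atp2b4* was the member with the largest increase. The counts of *Atp2b4* were 741, 745 and 520 counts in the control pools and 2654 and 1932 in the exposed pools. Scaled by edgeR's TMM, these are 17.0, 15.0 and 11.2 CPM against 61.6 and 46.0 CPM. Both exposed pools lay above all control pools, with a wide gap between the groups. The log2 fold change was 1.90 ± 0.30 (SE), with a 95% interval of 1.18 to 2.62 and an adjusted p of 0.0278 (edgeR), a 3.74-fold increase. Under the 15 alternatives its log2 fold change ran from 1.67 to 2.07 and its adjusted p from 1.07e-06 to 0.582. The call was kept in 11 of the 15. It was lost without control pool 2 (adjusted p = 0.105, edgeR), without exposed pool 1 (0.229), with scaling to the ERCC spike-ins (0.582) and with the pool number as a block (0.196).

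*Atp2b1*, already the most abundant plasma membrane pump at rest, was the other called gene, and whether its increase differs from that of *Atp2b4* was not tested. Its counts were 6445, 10706 and 9176 in the control pools and 13614 and 13962 in the exposed pools, which corresponds to 148, 216 and 198 CPM and to 316 and 333 CPM. The groups did not overlap, and the exposed pools differed less from each other than the control pools did. The log2 fold change was 0.79 ± 0.19 (SE), with a 95% interval of 0.35 to 1.24 and an adjusted p of 0.0883 (edgeR), a 1.73-fold increase. This call is close to the threshold: it was kept in 4 of 15 alternatives, whose log2 fold changes ran from 0.52 to 0.93 and whose adjusted p ran from 0.00492 to 0.9996. With 1 library left out it was kept only without control pool 1, and the adjusted p was 0.128 without control pool 2, 0.109 without control pool 3, 0.360 without exposed pool 1 and 0.268 without exposed pool 3 (edgeR).

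The exchangers were not called. *Slc24a4* had 8319, 15493 and 11563 counts in the control pools and 7344 and 8253 in the exposed pools, or 190.5, 312 and 249 CPM and 170.5 and 197 CPM. Control pool 1 lay between the exposed pools, so the groups overlapped. Its log2 fold change was -0.45 ± 0.23 (SE), with a 95% interval of -0.99 to 0.09 and an adjusted p of 0.337 (edgeR). The 3 genes whose CPM followed those of *Slc24a4* most closely over the 5 pools were *Abcc4*, *Rbbp8* and *Eml1*, with root mean square differences of centered log2 CPM of 0.0557, 0.0596 and 0.0679.

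*Slc24a2* counts were 5667, 9874 and 8513 in the control pools and 7928 and 7813 in the exposed pools, and both exposed values lay within the control range. The log2 fold change of *Slc24a2* was 0.12 ± 0.21 (SE), with a 95% interval of -0.38 to 0.61 (adjusted p = 0.802, edgeR). *Slc8a1* had 7110, 7382 and 7818 counts in the control pools and 7396 and 9079 in the exposed pools. In CPM, the exposed values of *Slc8a1*, 172 and 216, lay above the control values of 163, 149 and 168, while in TPM exposed pool 1 lay below all control pools. Its log2 fold change was 0.28 ± 0.17 (SE), with a 95% interval of -0.12 to 0.67 (adjusted p = 0.414, edgeR). In CPM, 3 of the 7 tested members had exposed pools above all control pools, *Atp2b4*, *Atp2b1* and *Slc8a1*, which was so for 20.3% of all genes tested, and 0 had them below all control pools (19.6% of all genes; 39.9% for both directions). A p above the threshold does not show that the exchangers were alike in both conditions, and these intervals bound what could have been missed.

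**Figure D2:**
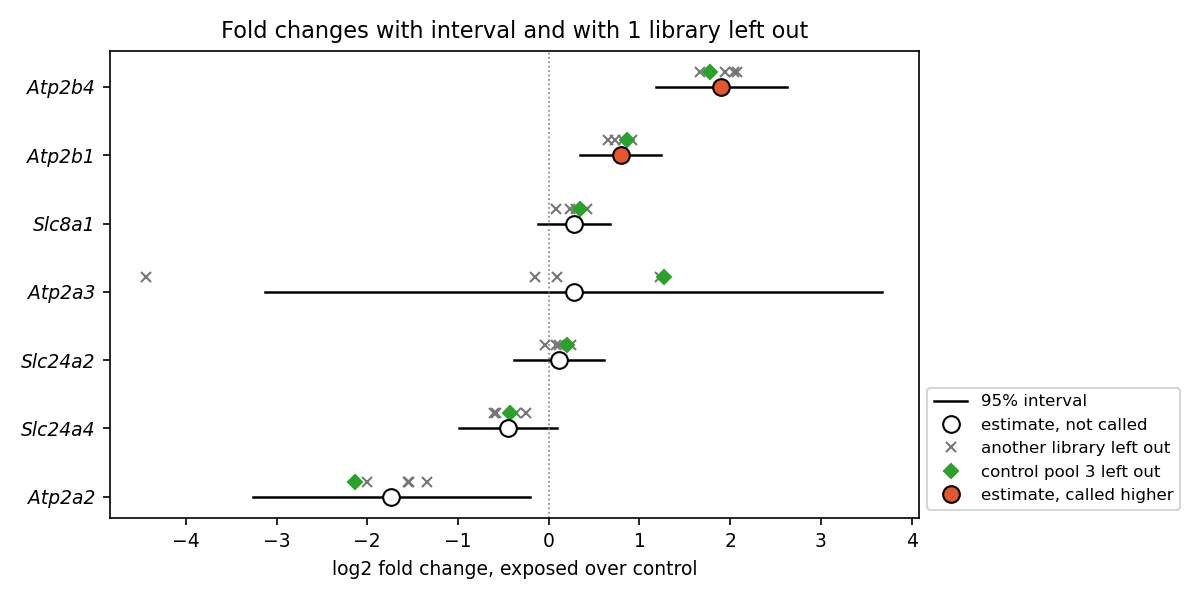
Log2 fold change of the 7 tested genes, exposed over control, with 95% intervals (lines), calls (filled circles are called higher) and the estimate with 1 library left out (crosses, and green diamonds without control pool 3). *Atp2b4* and *Atp2b1* stay above 0 throughout, while *Atp2a3* ranges from -4.43 to 1.27 and *Atp2a2* reaches -2.13 without control pool 3.

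Among the reticulum pumps, *Atp2a2* separated the control pools from each other. Its counts were 33739, 45769 and 9223 counts in the control pools and 6913 and 9201 in the exposed pools, or 772, 923 and 199 CPM against 160.5 and 219 CPM. Control pool 3 lay between the exposed pools. The log2 fold change was -1.73 ± 0.63 (SE), with a 95% interval of -3.26 to -0.21, and *Atp2a2* was not called (adjusted p = 0.214, edgeR). Without control pool 3, its log2 fold change was -2.13 ± 0.22 (SE) with an adjusted p of 0.00826 (edgeR), and it was called lower. This was the 1 alternative of 15 that called it.

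Control pool 3 was also low in other genes, but it was not the only control pool to depart from the others. In 508 of the 10054 genes tested it was under 0.5 times the lower of the other control pools, and in 252 of these genes both exposed pools were so too. By the same measure, control pool 1 was under both other control pools in 513 genes and control pool 2 in 149. For control pools 1 and 2, genes with both exposed pools low too were not counted. Among the listed genes, *Mcur1*, *Slc12a2*, *Lhx2* and *Hbb-bs* shared the pattern of *Atp2a2*, a comparison made after its values were seen. *Slc12a2*, the chloride importer of OSNs, was at 231, 164 and 46.0 TPM in the control pools and at 43.1 and 50.6 in the exposed pools. *Hbb-bs*, a hemoglobin gene and the most abundant of 5 erythroid markers, was at 907, 319 and 37.0 TPM in the control pools and at 37.8 and 15.0 in the exposed pools. The 5 erythroid markers, all detected in every pool, summed to 1415, 502, 56.4, 59.4 and 26.6 TPM in that order. Their part in the values of *Atp2a2* was not tested.

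*Atp2a3* could not be resolved. Its counts were 321, 154 and 945 in the control pools and 1050 and 20 in the exposed pools, so that the exposed pools held both its highest and its lowest value. The log2 fold change of 0.28 had an SE of 1.40 and a 95% interval of -3.12 to 3.68 (adjusted p = 0.942, edgeR), and it was -4.43 without exposed pool 1. Of the 5 microvillar cell markers, the most abundant, *Il25*, was at 33.9 TPM in control pool 3, 65.1 TPM in exposed pool 1 and 0 in the other 3 pools, and *Trpm5* was highest, at 14.3 TPM, in control pool 3. The other 3, *Ascl3*, *Foxi1* and *Cftr*, were highest in control pool 2, at 26.5, 26.0 and 2.38 TPM, the control pool in which *Atp2a3* was lowest. The summed markers of microvillar cells were 0.0338, 56.0 and 48.2 TPM in the control pools, with 0, 4 and 2 of 5 markers detected, and 70.6 and 4.52 TPM in the exposed pools, with 4 and 2 detected. Their part in the values of *Atp2a3* was not tested.

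The summed level of the 10 genes was 633, 941 and 444 TPM in the control pools and 346 and 412 TPM in the exposed pools. Pumps held 57.6% ± 16.3 (SD, n = 3) of it in the control pools, with 69.5%, 64.2% and 39.0% in the control pools, and 47.9% and 46.8% in the exposed pools. The plasma membrane pumps alone held 5.58%, 5.91% and 10.7% in the control pools and 21.7% and 19.4% in the exposed pools. Their own level was 46.2 ± 10.2 TPM (SD, n = 3) in control and 77.7 ± 3.38 TPM (SD, n = 2) in exposed pools, while the reticulum pumps stood at 359 ± 215 and 101.7 ± 15.9 TPM and the exchangers at 267 ± 71.7 and 200.0 ± 27.5 TPM. Since *Atp2a2* is the largest part of the sum in control pools 1 and 2, these shares move with it, and no test was run on them.

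**Figure D3:**
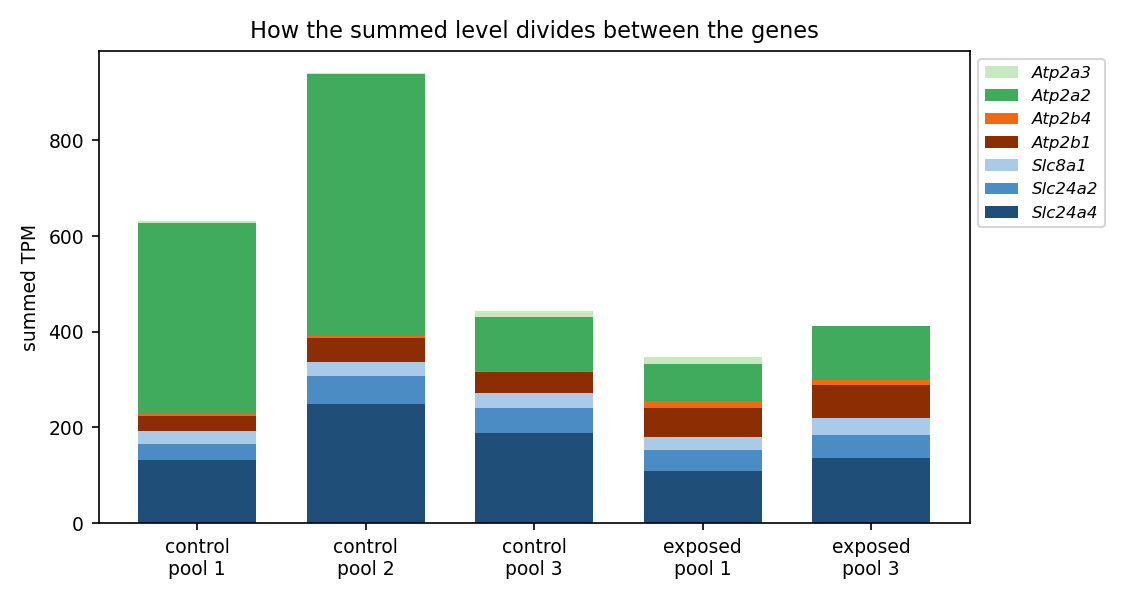
Summed level of the calcium exchangers and pumps in each pool, in TPM, divided by gene (blue, exchangers; orange and brown, plasma membrane pumps; green, reticulum pumps). The summed level runs from 346 TPM in exposed pool 1 to 941 TPM in control pool 2, and most of that range is *Atp2a2*.

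RefSeq promoter windows, 250 bases before to 50 after a gene start on GRCm38.p6, were found for 9 of the 10 genes and numbered 13. They were searched on both strands for the cAMP response element TGACGTCA, its core TGACG, which the full element contains, and the AP-1 site TGANTCA, since cyclic AMP and calcium signals act through such elements in neurons. No window held the full element, which 1.79% of all 32851 windows hold, and no window the AP-1 site (7.81% of all). The core was in 4 windows (20.8% of all windows hold it), 1 each of *Atp2b1*, *Atp2b4*, *Slc24a2* and *Slc8a3*. The cores are shown with 30 bases of their surroundings, since both called genes hold one, with the core in capitals, on the strand of the gene:
Atp2b1, chr10:98914635-98914664, plus strand: ccccgcgggccgCGTCAcgtgaccgcgccc
Atp2b4, chr1:133753698-133753727, minus strand: cagggagccctcctctttttccTGACGcca
Slc24a2, chr4:87228029-87228058, minus strand: cacaggacaaggCGTCAtcatatctgcaaa
Slc8a3, chr12:81333247-81333276, minus strand: cagctgatagggTGACGtcgagtttggagg

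Counted from the RefSeq start of each window, the core began 6 bases into the *Atp2b1* transcript and 43 bases into the *Atp2b4* transcript. It lay 83 and 84 bases before the starts of *Slc24a2* and *Slc8a3*. It was thus found beside 2 genes that rose, 1 that was not called and 1 with no counts. The windows of the called genes differed in base composition, with 79.3% GC in that of *Atp2b1* and 47.7% in that of *Atp2b4*, around a mean of 53.8% over all windows. In the count tables, *Atp2b4* (ENSMUSG00000026463) spans chr1:133699457-133801041 and *Atp2b1* (ENSMUSG00000019943) spans chr10:98914406-99026143 on GRCm38, so both genes reach further upstream there than the RefSeq starts shown. The window of *Atp2b4*, chr1:133753698-133753997 on the minus strand, lies wholly inside that gene. Whether its start is used in these neurons was not tested. A match is a description of these letters and not a bound site.

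Other calcium and transduction genes were read from lists by function. Of the 8 other members of these transporter families, 2 were tested and 1 was called, lower (1.85% of all genes tested were). *Atp2c2*, a calcium and manganese pump of the Golgi apparatus, was at 88.8, 116.7 and 101.3 TPM in the control pools and at 16.6 and 33.8 TPM in the exposed pools. It fell in both exposed pools, below every control pool as 19.6% of all genes tested, with a log2 fold change of -1.86 ± 0.32 (SE) and an adjusted p of 0.0344 (edgeR). It kept its call in 10 of 15 alternatives, and of the 5 omissions of a library lost it without control pool 2 (adjusted p = 0.116) or exposed pool 1 (adjusted p = 0.147). Its relative *Atp2c1*, the most abundant of this list, had a log2 fold change of -0.35 ± 0.17 (SE) and was not called (adjusted p = 0.330, edgeR). *Slc8b1*, the mitochondrial exchanger, and *Atp2b3* had 0 counts in all pools.

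In the mitochondrial uptake list, 6 of 7 genes were tested and 1 was called, higher (3.42% of all genes tested were). *Mcu*, the pore of the mitochondrial calcium uniporter, was at 34.5, 34.4 and 40.0 TPM in the control pools and at 55.3 and 57.9 TPM in the exposed pools. The exposed pools were above all control pools, and its log2 fold change was 0.81 ± 0.18 (SE, adjusted p = 0.0745, edgeR). The call of *Mcu* was kept in 8 of 15 alternatives, and of the 5 omissions of a library it was lost without control pool 2 (adjusted p = 0.182), exposed pool 1 (0.365) or exposed pool 3 (0.223). *Smdt1*, its small regulatory subunit and the most abundant of the list, had a log2 fold change of -0.01 ± 0.27 (SE, adjusted p = 0.994, edgeR). *Mcur1* of the same list, low in control pool 3 as well, had a log2 fold change of -2.32 ± 0.72 (SE) with both exposed pools below all control pools and was not called (adjusted p = 0.166, edgeR). At an unadjusted p-value under 0.05 and by DESeq2, *Mcu* was higher and *Mcur1* lower, beside 8.37% of all genes tested higher and 9.36% lower at the unadjusted p-value and 7.21% and 7.65% by DESeq2.

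The channels that let calcium into the cilium fell. Of the 8 genes of the transduction current, all tested, edgeR called 3 lower and 0 higher, beside 1.85% of all genes tested called lower. An unadjusted p-value under 0.05 and DESeq2 gave the same counts in the list, beside 9.36% and 7.65% of all genes lower. These were the 3 subunits of the cyclic nucleotide-gated channel. *Cnga2*, the most abundant gene of the list, went from 5513, 6858 and 5685 TPM in the control pools to 3116 and 2886 TPM in the exposed pools, with a log2 fold change of -0.83 ± 0.12 (SE, adjusted p = 0.0194, edgeR). *Cngb1* had a log2 fold change of -0.91 ± 0.17 (SE, adjusted p = 0.0485) and *Cnga4* one of -0.53 ± 0.12 (SE, adjusted p = 0.0732). All 3 subunits were lower in both exposed pools than in every control pool, as were 19.6% of all genes tested. Over the 15 alternatives the call was kept in 11 for *Cnga2*, 9 for *Cngb1* and 6 for *Cnga4*. With 1 library left out, *Cnga2* kept its call without each control pool and lost it without exposed pool 1 (adjusted p = 0.109) or 3 (0.128). *Cngb1* lost its call without control pool 2 (adjusted p = 0.149), exposed pool 1 (0.333) or exposed pool 3 (0.131), and *Cnga4*, of the 5 omissions, kept it without control pool 1, with adjusted p-values of 0.178 without control pool 2, 0.117 without control pool 3, 0.377 without exposed pool 1 and 0.215 without exposed pool 3.

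In 3 other lists no gene was called by edgeR, where 5.27% of all genes tested were called. Of the partners and regulators of the pumps, 5 of 7 were tested. *Pln* and *Sln*, the muscle inhibitors of reticulum pumps, had 0 counts in all pools, and 2 genes, *Calm2* and *Calm3*, were lower at an unadjusted p-value under 0.05 (9.36% of all genes tested were) and by DESeq2 (7.65%). Of 11 genes of store release and store-operated entry, 5 were tested, with a median log2 fold change of -0.73. The most abundant of them, the channel gene *Orai2*, had a log2 fold change of -0.61 ± 0.18 (SE, adjusted p = 0.138, edgeR), and at an unadjusted p-value under 0.05 *Orai2* and *Stim2* were lower, while DESeq2 called 1, *Orai2*, beside the same shares of all genes. Of 7 subunits of the sodium-potassium pump, which maintains the gradient that the exchangers use, 3 were tested and 0 were called by edgeR. At an unadjusted p-value under 0.05 (17.7% of all genes tested, both directions) and by DESeq2 (14.9%) there were also 0. The most abundant, *Atp1b1*, had a log2 fold change of 0.20 ± 0.10 (SE, adjusted p = 0.351, edgeR).

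**Figure D4:**
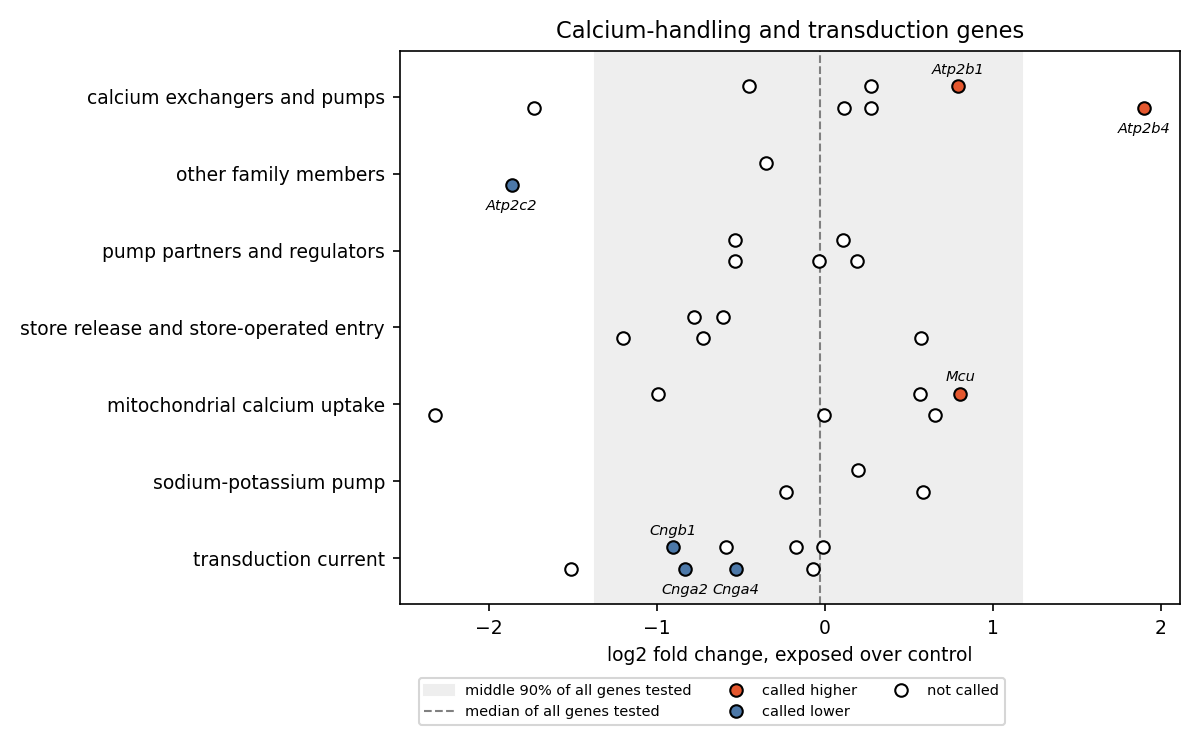
Log2 fold change, exposed over control, of every tested gene of the calcium and transduction lists, 1 row per list, with called genes filled and named. The gray band holds the middle 90% of all genes tested (-1.37 to 1.17) and the dashed line is their median; *Atp2b4*, *Atp2a2*, *Atp2c2*, *Mcur1* and *Slc12a2* lie outside the band, of which *Atp2b4* and *Atp2c2* were called.

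Markers of cell state and of other cells were read beside these changes. Of the markers of other cell types, 4 sustentacular, 4 myeloid, 1 erythroid and 1 endothelial or vascular muscle gene were tested. EdgeR called none of them, where 5.27% of all genes tested were called. Of the microvillar, basal and ensheathing glia markers 0 were tested, so none could be called. The erythroid gene, *Hbb-bs*, had a log2 fold change of -3.86 ± 1.37 (SE). It was lower at an unadjusted p-value under 0.05 (9.36% of all genes tested were) and by DESeq2 (7.65%). Of the 7 mature OSN markers, all tested, 2 were called lower beside 1.85% of all genes tested, *Cnga2* and *Rtp1*, a chaperone of odorant receptors, whose log2 fold change was -1.07 ± 0.13 (SE, adjusted p = 0.00988, edgeR). The call of *Rtp1* was kept in 12 of 15 alternatives, and of the 5 omissions was lost without exposed pool 1 (adjusted p = 0.124). The summed mature OSN markers were 65371, 72759 and 69926 TPM in the control pools and 54263 and 54203 TPM in the exposed pools. Of the 5 immature OSN markers, *Gap43*, a growth cone protein, was called higher (3.42% of all genes tested were) with a log2 fold change of 0.94 ± 0.22 (SE, adjusted p = 0.0891, edgeR), a call kept in 4 of 15 alternatives and lost on leaving out any 1 library (adjusted p = 0.107 to 0.506). The list did not move one way: *Lhx2* had a log2 fold change of -2.22, with both exposed pools below all control pools, *Dpysl3* one of 1.31 and *Gng8* one of 1.13, and edgeR called none of these. DESeq2 called *Lhx2* lower and *Gap43* and *Dpysl3* higher, and at an unadjusted p-value under 0.05 *Gng8* was higher too. Of all genes tested, DESeq2 called 7.21% higher and 7.65% lower, and 8.37% were higher at the unadjusted p-value. The summed immature markers, of which *Stmn2* was the most abundant, were 826, 866 and 679 TPM in the control pools and 885 and 737 TPM in the exposed pools. Of the 9 myeloid markers, 4 were tested and 0 called by edgeR, with 2 higher at an unadjusted p-value under 0.05, *Ptprc* and *S100a9*, and 1 by DESeq2, *Ptprc*, beside 8.37% and 7.21% of all genes higher. These 2 and *Tyrobp* reached the 140 counts only through the exposed pools, where they are high, so that higher exposed values were in part built in by the filter. Their counts were 0, 54 and 1 against 542 and 517 (*Ptprc*), 94, 45 and 181 against 398 and 249 (*S100a9*) and 538, 123 and 67 against 1026 and 797 (*Tyrobp*). *C1qb*, which was not tested, was at 39.9, 5.07 and 0 TPM in the control pools and at 4.42 and 1.30 TPM in the exposed pools. The 9 myeloid markers, of which 8, 8, 4, 9 and 9 were detected in the 5 pools and *Lyz2* was the most abundant, summed to 321, 65.0 and 79.2 TPM in the control pools and to 362 and 165.4 TPM in the exposed pools. Their part in the increase of *Atp2b1* and *Atp2b4* was not tested.

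Few exon bases of the 10 genes overlap another gene. In the count tables, 7 of the genes share no exon base with another gene. *Atp2a2* shares 83 exon bases (1.36% of its exons) with the antisense gene *Gm43361*, which had 37 to 174 counts, *Slc8a1* shares 296 bases (1.57%) with *AC122399.1* and 8 with *Gm11096*, which had at most 2 counts, and *Atp2b4* shares 6 bases with *Mir6903*, which had 0. Reads were counted without strand, so reads of such shared bases cannot be separated.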

How the data were processed

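The authors mapped single reads of 50 bases, from cDNA amplified in 12 PCR cycles, with STAR 2.7.0a on GRCm38 and counted them per gene with featureCounts 1.6.3 (Ensembl annotation with updated odorant receptor models, ERCC spike-ins and the reporter), without strand and without multi-mapping reads. The deposited values are these raw counts, unfiltered and not normalized. The versions come from the submitters' processing notes. Of 55411 genes, 55144 were named through GENCODE M21, and 267 were not.

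The fit used edgeR 4.0.16 under R 4.3.3 (TMM scaling, robust glmQLFit, glmQLFTest) on all 5 libraries, with condition as its only term. Library totals include the spike-ins and the reporter. A gene was tested where all libraries of 1 condition or more reached 140 counts, the dip next to the high mode in the density of log2 counts. The SE is the log2 fold change over the square root of the F statistic. TPM use the exon lengths of the tables, so a TPM ratio can differ from a TMM fold change. In simulated counts, with 200 of 10054 genes changed, the share called was 28% at a 2-fold change, 70% at 4-fold, 78% at 8-fold and 98% at 16-fold, with 24 false calls among 9854 genes. Each gene was drawn independently from the model and the spread that the fit had estimated. A pool that departs in many genes at once is therefore not represented, and these shares need not hold for the real pools. Figures were drawn in Python 3.11.15 with matplotlib 3.10.9.

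The genes, lists and tests were chosen with earlier results of these data known. Named were all 10 genes, the called genes and the most abundant gene of each list, markers at 0 and the 3 genes most like *Slc24a4*. *Omp*, *Slc12a2*, *Mcur1*, *Lhx2*, *Calm2*, *Calm3*, *Stim2*, *Dpysl3*, *Gng8*, *Trpm5*, *Ascl3*, *Foxi1*, *Cftr*, *C1qb*, *Ptprc*, *S100a9* and *Tyrobp* were named after their values were seen. Some genes that this rule selects are not reported here. The alternatives were DESeq2 1.42.0, other scalings, filters and thresholds, the pool number as a block and the omission of each library.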

Additional observations from a re-analysis of the deposited data

How the results depend on the processing

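With 2 exposed pools, the spread within that condition rests on 1 difference per gene. *Slc24a4*, *Slc8a1*, *Atp2b1*, *Atp2b4* and *Atp2a2* kept the sign of their log2 fold change in all 15 alternatives. DESeq2's Wald test called 725 genes higher and 769 lower, against 344 and 186, and called the same 2 members. ERCC spike-in scaling, which moved the median of all genes tested from -0.03 to -0.23, gave 94 and 49 calls and 0 members, with *Atp2b1* at 0.52, *Atp2b4* at 1.67, *Slc24a2* at -0.18 and *Atp2a3* at -0.34. A threshold of 0.05 gave 190 and 90 calls and 1 member, *Atp2b4*, with *Atp2b1* at 0.79. The filter of filterByExpr gave 162 and 74 calls and 1 member (*Atp2b1* 0.81). Only *Atp2b4* was also called with library totals in place of TMM (1 member, *Atp2b1* 0.75), with no filter (1 member, *Atp2b1* 0.82) and with the next lower local minimum, 58 counts, a filter chosen after seeing the data (1 member, *Atp2b1* 0.80). The causes were not tested.

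Control and exposed pools share the numbers 1 and 3, but the labels do not tie a number to a day. The deviations of same-numbered pools from their group means correlated with r = 0.0471 (pools 1) and -0.0798 (pools 3) across genes, and the pools were not treated as pairs. With the pool number as a replicate block, 11 genes were called higher, 0 lower and 0 members (*Atp2b1* 0.93, *Atp2b4* 1.95, *Atp2a3* -1.73).

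With each library left out in turn, where a lone exposed pool is assumed to vary like the control pools, 93 to 348 genes were called higher, 19 to 429 lower and 0 to 2 members. The lowest counts higher and lower came without exposed pool 1, 0 members were called without control pool 2 or exposed pool 1, and the 429 lower genes came without control pool 3. The log2 fold changes ran from 1.67 to 2.07 (*Atp2b4*), 0.66 to 0.92 (*Atp2b1*), 0.08 to 0.42 (*Slc8a1*), -0.039 (without control pool 1) to 0.25 (*Slc24a2*), -0.60 to -0.25 (*Slc24a4*), -2.13 to -1.35 (*Atp2a2*) and -4.43 to 1.27 (*Atp2a3*), and the pump share of the control pools from 51.6% to 66.9%.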
